A study of Mus musculus with 9 samples.

Results

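The bone morphogenetic protein (BMP) and transforming growth factor beta (TGF-beta) ligands Bmp2, Bmp4, Bmp5, Bmp6, Bmp7, Tgfb1, Tgfb2 and Tgfb3, with the inhibitory Smad genes Smad6 and Smad7, were compared between 3 layers of the mouse eye. These 10 genes were chosen by symbol, and all 10 were on the array, with 12 of its 39429 probes (31829 genes by name). The layers were the choroid (CH), the vascular coat behind the retina, the retinal pigment epithelium (RPE), the single cell layer between choroid and retina, and the photoreceptors (PR). All samples came from untreated female C57BL/6 mice (C57BL/6JOlaHsd in the methods of the study) that the labels put at 6 months ± 2 weeks of age, an age the methods of the study give slightly lower. Each layer had 3 samples, each cut by laser from cryosections of 1 whole eye and measured on 1 array. The p-values therefore measure a spread between eyes that cannot be told apart from that of amplification, array and slide. The amplified RNA of a sample carried Cy5 and was hybridised with a common Cy3 reference made from mouse RPE and choroid RNA. A value below is the log2 ratio of tissue Cy5 to reference Cy3 at 1 probe, and a difference between layers is the difference of these ratios. Since dissected layers are mixtures, fewer cells of a type and less RNA per cell cannot be told apart.

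BMP and TGF-beta ligands are secreted dimers that bind pairs of type I and type II serine/threonine kinase receptors. BMP receptors phosphorylate Smad1, Smad5 and Smad9, TGF-beta receptors phosphorylate Smad2 and Smad3, and both sets enter the nucleus with Smad4. Smad6 and Smad7 are induced by the signal and block it at the receptors. TGF-beta is stored in the matrix in a latent form that integrins and thrombospondin can release. In the eye, BMPs take part in the patterning of the retina and RPE, and TGF-beta is a regulator of matrix production and of the epithelial state of the RPE.

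Each array held 43020 spots that are not controls. Of the probes, 91.7% stood well above background in Cy5 on RPE replicate 2, and from 62.1% to 71.2% on the other arrays, and 3 arrays per layer limit the precision of every value. The arrays lay on 3 slides. Slide 1 held PR replicates 1 and 3, slide 2 held CH and RPE replicates 1 and 3, and slide 3 held replicate 2 of each layer. Slide was not part of the main fit and slide 1 held no other layer, so slide and layer are partly mixed in comparisons with the PR. The mean ratio over 7 rod markers was between 3.50 and 3.69 in the PR and at most 0.20 elsewhere. The 7 RPE markers had a mean ratio between 1.76 and 2.17 in the RPE, between 0.27 and 1.08 in the CH and between -2.93 and -2.89 in the PR. Of these, Best1 was well above background on 2 of 9 arrays, and 3 RPE markers were saturated on all RPE arrays, as were 3 rod markers on all PR arrays. CH replicate 3 had the highest RPE marker level of the CH arrays, 1.08 against 0.39 and 0.27 on replicates 1 and 2. The 5 fibroblast markers had a mean ratio of 1.29 on CH replicate 3, and of 1.69 and 1.74 on the others.

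A call needed an adjusted p below 0.01 and a fold change above 2.5. In the RPE against the CH, 1 member was called higher in the RPE, Bmp4, and 1 lower, Tgfb3. The background was 0.179% of all genes called higher in the RPE and 1.74% called higher in the CH. In the RPE against the PR 8 of 10 members were called, all higher in the RPE, where 10.8% of all genes were called in that direction and 5.23% in the other. In the CH against the PR 9 members were called, all higher in the CH, against 12.7% of all genes in that direction and 6.09% in the other. The comparisons share arrays, so their counts are not independent of each other. The median difference of the 10 members was -0.11 for RPE minus CH, 2.26 for RPE minus PR and 2.77 for CH minus PR, beside medians of 0.03, -0.01 and -0.05 over all genes.

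By their means, the members fell into 2 main orders. Bmp2, Bmp4, Bmp6 and Bmp7 were highest in the RPE, then the CH, then the PR, an order that 17.7% of all genes have. Tgfb1, Tgfb2, Tgfb3, Smad6 and Smad7 were highest in the CH, then the RPE, then the PR, which 21.3% of all genes have. Bmp5 stood alone with the PR first, the order of 27.2% of all genes, but its layers did not differ beyond their spread. For RPE against CH, the RPE arrays lay above all CH arrays for 4 members and below all of them for 4, with the remaining 2, Bmp5 and Tgfb2, overlapping. Of all genes, 19.8% and 19.1% were apart in these 2 ways. At an adjusted p below 0.05 with no fold threshold, 4 members were higher in the RPE and 3 in the CH, beside 10.3% and 12.1% of all genes. By this rule 8 members were higher in the RPE than the PR and 9 in the CH than the PR, with 0 the other way, beside 25.1% and 26% of all genes in these directions and 25.4% and 27.7% in the opposite ones.

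**Figure D1:**
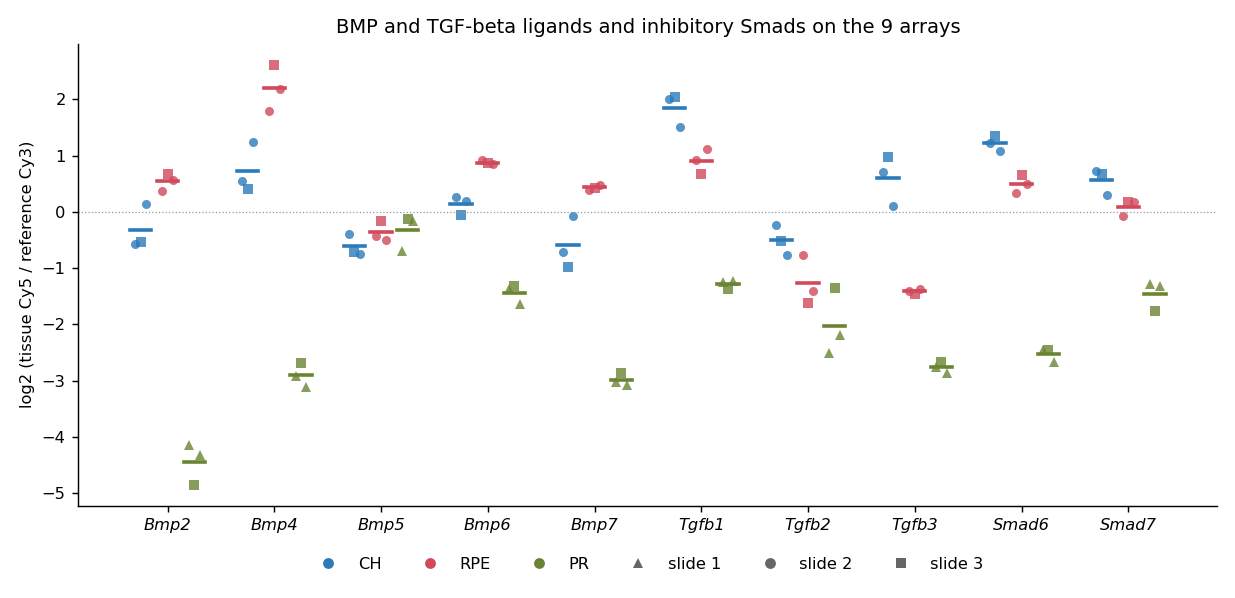
Log2 ratio of tissue Cy5 to reference Cy3 (y axis) of the 10 genes (x axis) on each of the 9 arrays, with colour for the layer, shape for the slide and a bar for the mean of 3 arrays. The PR arrays lie below the CH and RPE arrays for 8 genes, Tgfb2 has 1 PR array among the RPE values, and Bmp5 shows no separation.

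For 4 members that differed between RPE and CH, the sequence around the RefSeq start of transcription is shown, so that the start of BMP ligands higher in the RPE can be read beside that of genes higher in the CH. RefSeq promoters (GRCm38.p6) of 6 of the 10 members were searched, which leaves Bmp2, Bmp7, Tgfb3 and Smad7 without a sequence here. Each run holds 250 bases before the start and 30 after it, with matches to the searched motifs in capitals. These were CACGTG, a core E-box, TCATGTG, the M-box bound by factors of the pigment lineage, GTCTAGAC, the palindrome bound by Smad3 and Smad4, GGCGCC, a GC-rich element bound by BMP Smads, and TATAAA, each on both strands. CACGTG was added after the sequences had been read. Bmp4 lies at chr14:46390640-46390919, minus strand, Bmp6 at chr13:38345466-38345745, plus strand, Tgfb1 at chr7:25686752-25687031, plus strand, and Smad6 at chr9:64022030-64022309, minus strand.
Bmp4: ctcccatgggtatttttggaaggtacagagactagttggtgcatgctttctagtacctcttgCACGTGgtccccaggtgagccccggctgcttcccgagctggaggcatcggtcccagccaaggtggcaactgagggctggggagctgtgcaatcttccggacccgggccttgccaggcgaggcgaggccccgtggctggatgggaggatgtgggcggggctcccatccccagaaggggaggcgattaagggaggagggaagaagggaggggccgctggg
Bmp6: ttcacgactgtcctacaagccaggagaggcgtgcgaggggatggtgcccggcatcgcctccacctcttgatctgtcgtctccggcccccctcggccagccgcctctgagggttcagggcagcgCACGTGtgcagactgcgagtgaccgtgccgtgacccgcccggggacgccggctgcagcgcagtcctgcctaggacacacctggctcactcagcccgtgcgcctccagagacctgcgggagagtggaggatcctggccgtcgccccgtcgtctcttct
Tgfb1: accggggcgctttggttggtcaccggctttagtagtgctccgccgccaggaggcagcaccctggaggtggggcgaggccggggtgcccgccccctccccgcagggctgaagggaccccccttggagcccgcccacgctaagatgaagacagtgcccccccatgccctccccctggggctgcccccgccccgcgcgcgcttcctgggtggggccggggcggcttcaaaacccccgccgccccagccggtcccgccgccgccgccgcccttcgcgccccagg
Smad6: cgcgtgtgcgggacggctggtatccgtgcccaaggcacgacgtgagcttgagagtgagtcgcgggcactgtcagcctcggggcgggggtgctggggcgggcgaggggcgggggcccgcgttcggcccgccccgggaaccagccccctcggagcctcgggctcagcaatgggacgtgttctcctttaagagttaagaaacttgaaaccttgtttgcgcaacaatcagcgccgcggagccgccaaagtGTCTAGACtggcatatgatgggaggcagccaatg
CACGTG was found at -188 in Bmp4 and at -127 in Bmp6, and also at -51 in Tgfb2, counted from the start. It is held by 6.79% of the 32851 mouse promoter windows of the same length. GTCTAGAC was found at -4 in Smad6 and is held by 0.192% of the windows. Tgfb1 held none of the motifs, and TATAAA was found in Tgfb2 alone, at -31 (13.1% of windows). TCATGTG (3.6% of windows) and GGCGCC (10.9%) were in none of the 6 windows. The G and C content was 64.3% for Bmp4, 68.6% for Bmp6, 65.4% for Smad6 and 76.8% for Tgfb1, with a median of 52.5% over all windows. It was 42.9% for Bmp5 and 53.9% for Tgfb2, whose windows are not printed.

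Bmp4, a ligand that patterns the dorsal eye, was the one BMP ligand that passed both thresholds between RPE and CH. Its reported probe (mm9, chr14:47003391-47003450, minus strand) had ratios of 0.54, 0.40 and 1.25 in the CH, 1.79, 2.61 and 2.18 in the RPE, and -2.93, -2.69 and -3.11 in the PR. The layers did not overlap, and CH replicate 3, the CH array with the most RPE marker signal, was nearest to the RPE. The RPE mean of 2.19 ± 0.41 (SD, n = 3) was 2.75-fold above the CH mean of 0.73 ± 0.45 (difference 1.46 ± 0.25 (SE), adjusted p = 0.0032 by limma). The 95% interval of this difference, 0.89 to 2.03, reached below the fold threshold. Against the PR, Bmp4 was 34.2-fold higher in the RPE and 12.4-fold higher in the CH, differences of 5.10 and 3.64.

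The RPE against CH call of Bmp4 was close to its limits. Without CH replicate 1 the difference was 1.37 (adjusted p = 0.014), without CH replicate 2 it was 1.30 (0.0155), without RPE replicate 2 it was 1.25 (0.0128) and without RPE replicate 3 it was 1.47 (0.0127), none of which passed. Without CH replicate 3 it was 1.72 (0.000949). Within slide 2 the difference was 1.09, over 2 arrays per layer, and within slide 3 it was 2.21, over 1 each. The reference channel of this probe was not level, with Cy3 signals from 25695 to 32356 on the RPE arrays, 31331 to 51775 on the CH arrays and 58342 to 90621 on the PR arrays. With Cy5 alone, the RPE minus CH difference was 0.79 (adjusted p = 0.0988) and the RPE minus PR difference 3.94 (adjusted p = 5.88e-06). The call between RPE and CH also ended with median centring (1.15, adjusted p = 0.0113), with the scanner's log ratio (1.48, adjusted p = 0.0111) and with the series table of the authors (0.87, adjusted p = 0.133). That series table also holds the Cy5 channel without the reference, so it is not independent of the value from Cy5 alone. The study's own limma fit of these same arrays, at the same thresholds, lists Bmp4 as higher in the RPE than the CH. The study's semi-quantitative RT-PCR also placed Bmp4 highest in the RPE.

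Bmp4 has a second probe, at chr14:47003198-47003257 (mm9), on which the slides differed. Its ratios were 0.04, -1.08 and 0.20 in the CH, 1.04, -0.42 and 1.52 in the RPE, and -5.16, -2.49 and -5.36 in the PR. Replicate 2, on slide 3, was lowest in the CH and RPE and highest in the PR. On slide 3 its Cy3 signals were 268, 310 and 298, and on the other arrays they were from 5666 to 8881, at least 20.95-fold higher once the local background was subtracted. A Cy3 drop of over 10-fold on every slide 3 array occurred at 43 of 26307 probes. The RPE minus CH difference at this probe was 0.99 (95% interval -0.71 to 2.70, adjusted p = 0.413), and 1.16 (adjusted p = 0.0131) without slide 3. The differences from the PR, 5.05 for the RPE and 4.06 for the CH, passed at this probe too, and without slide 3 they were 6.54 and 5.38. The probe was well above background in Cy5 on 2 of 3 CH arrays, on all 3 RPE arrays and on 2 of 3 PR arrays.

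**Figure D2:**
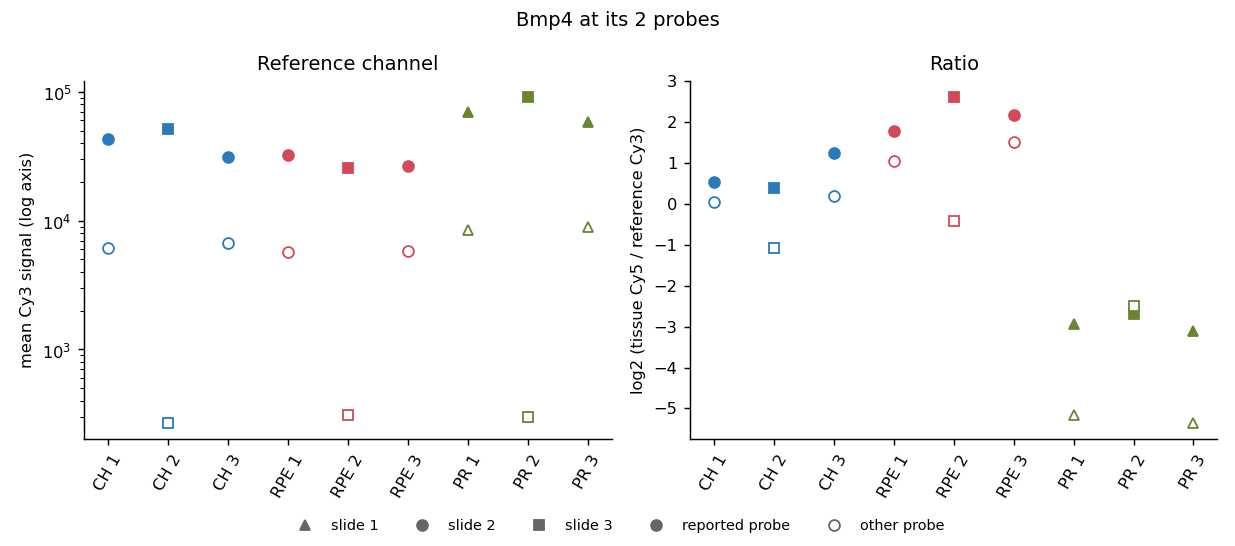
Cy3 signal of the common reference (left, log axis) and log2 ratio of tissue to reference (right) at both Bmp4 probes on each array, with colour for the layer, shape for the slide, filled marks for the reported probe and open marks for the other. The open squares of slide 3 lie at 268, 298 and 310 in Cy3, and the filled marks of the PR arrays lie above those of the CH and RPE.

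Bmp2, a ligand close to Bmp4 in sequence, had the widest span of a member between layers other than Bmp4. At its probe (mm9, chr2:133388260-133388319, plus strand) the ratios were -0.57, -0.54 and 0.14 in the CH, 0.37, 0.67 and 0.57 in the RPE, and -4.14, -4.85 and -4.33 in the PR. All RPE arrays were above all CH arrays, and all PR arrays were far below both. Bmp2 was 31.6-fold higher in the RPE than the PR (4.98 ± 0.22 (SE)) and 17.3-fold higher in the CH (4.11). The RPE minus CH difference of 0.87 (95% interval 0.36 to 1.37) did not pass, with an adjusted p of 0.0212. It was 0.69 within slide 2, 1.21 within slide 3 and 1.10 (adjusted p = 0.00424) without CH replicate 3. The limma adjusted p was above 0.05 without CH replicate 1 (0.0756), CH replicate 2 (0.0839), RPE replicate 2 (0.0699) or RPE replicate 3 (0.0621). It was also above 0.05 without slide 3 (0.109), with Cy5 alone (0.122), with median centring (0.209) and with the scanner's log ratio (0.0672). From the series table of the authors it was 0.112. Under the other alternatives it stayed below 0.05.

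Bmp7 and Bmp6 belong to another branch of BMPs, with Bmp5, and Bmp7 is needed for the development of the eye. Bmp7 (mm9, chr2:172695203-172695262, minus strand) had ratios of -0.71, -0.98 and -0.08 in the CH, 0.39, 0.43 and 0.48 in the RPE, and -3.02, -2.86 and -3.08 in the PR. Its RPE arrays lay close together and above every CH array. The RPE minus CH difference of 1.02 (95% interval 0.58 to 1.46, adjusted p = 0.00518) was below the fold threshold at 2.03-fold, and it was 1.28 without CH replicate 3. Bmp7 was 10.7-fold higher in the RPE than the PR and 5.27-fold higher in the CH.

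Bmp6, known in the liver as a regulator of iron through hepcidin, showed the tightest RPE values. Its ratios (mm9, chr13:38591479-38591538, plus strand) were 0.25, -0.05 and 0.20 in the CH, 0.91, 0.87 and 0.84 in the RPE, and -1.38, -1.31 and -1.65 in the PR. The RPE was above the CH by 0.74 ± 0.12 (SE), a 1.67-fold difference with an adjusted p of 0.00212 that did not reach the fold threshold. Against the PR, Bmp6 was 4.99-fold higher in the RPE and 2.99-fold higher in the CH. The CH call ended with the log ratio of the scanner software, where the difference was 1.28.

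Bmp5 gave no usable signal. Its ratios (mm9, chr9:75746444-75746503, plus strand) were -0.39, -0.71 and -0.75 in the CH, -0.43, -0.17 and -0.49 in the RPE, and -0.69, -0.13 and -0.17 in the PR, with overlap between all layers. The probe was well above background on 0 of 3 CH, 1 of 3 RPE and 1 of 3 PR arrays. The differences were 0.26 for RPE minus CH, -0.03 for RPE minus PR and -0.29 for CH minus PR, and none passed.

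Tgfb3, one of 3 TGF-beta isoforms, had the clearest difference between RPE and CH among the members. Over 8 to 10 spots per array (mm9, chr12:87397804-87397863, minus strand) its ratios were 0.70, 0.98 and 0.11 in the CH, -1.41, -1.45 and -1.37 in the RPE, and -2.75, -2.68 and -2.86 in the PR. The RPE and PR arrays each lay close together, and the CH arrays spread, with replicate 3 lowest. Tgfb3 was 4.02-fold lower in the RPE than the CH (difference -2.01, 95% interval -2.43 to -1.59, adjusted p = 0.000181). The difference was -1.80 within slide 2, -2.43 within slide 3 and -2.25 without CH replicate 3, and its call passed under all alternatives tried. The CH was 10.2-fold above the PR. The RPE was 2.55-fold above the PR (1.35, adjusted p = 0.000172), just over the fold threshold, and this call ended without PR replicate 3 (1.30), with Cy5 alone (1.06), with median centring (1.11), with the scanner's log ratio (1.07) and with the authors' series table (1.23).

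Tgfb1, the isoform most associated with immune regulation and with fibrosis, also lay highest in the CH. Over its spots, up to 10 per array (mm9, chr7:26489877-26489936, plus strand), the ratios were 2.00, 2.05 and 1.50 in the CH, 0.93, 0.67 and 1.12 in the RPE, and -1.25, -1.38 and -1.22 in the PR. The layers did not overlap, and CH replicate 3 was again nearest to the RPE. The RPE was 1.92-fold below the CH (-0.94, adjusted p = 0.0031), which is under the fold threshold. In the PR the probe was not well above background on any of 3 arrays, so only a bound can be given. The RPE level of Tgfb1 was at least 3.87-fold higher than that of the PR, and the CH level at least 7.69-fold higher. These bounds were set within the Cy5 channel, with no dyes swapped, and were not themselves tested. The calls rest on limma for the ratios (adjusted p = 2.2e-06 for RPE minus PR and 1.48e-07 for CH minus PR), which used the dim PR values.

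Tgfb2, the isoform most often named for the eye, had the smallest span from its highest to its lowest layer among the ligands other than Bmp5, although Bmp6 differed slightly less between RPE and CH. Its reported probe (mm9, chr1:188449333-188449392, minus strand) had ratios of -0.24, -0.52 and -0.77 in the CH, -0.76, -1.63 and -1.41 in the RPE, and -2.51, -1.36 and -2.19 in the PR. RPE overlapped with both other layers, and PR replicate 2, on slide 3, was above 2 of the 3 RPE arrays. CH minus PR passed with a difference of 1.51 (2.85-fold, adjusted p = 0.00192), and its other probe (chr1:188447534-188447593) passed too, with 1.35. That call was lost with slide as a fixed block (0.67, adjusted p = 0.169), without PR replicate 1 (1.27), with Cy5 alone (1.26) and with the authors' series table (1.28). RPE minus CH was -0.76 (95% interval -1.44 to -0.07, adjusted p = 0.113) and -0.78 (adjusted p = 0.0446) at the other probe. RPE minus PR was 0.76 (adjusted p = 0.0656) over all arrays but -0.27 within slide 3, and 0.56 and -0.35 at the other probe.

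Smad6, which preferentially blocks BMP receptors, had low spread in all layers. Its ratios (mm9, chr9:63800980-63801039, minus strand) were 1.23, 1.34 and 1.08 in the CH, 0.34, 0.64 and 0.50 in the RPE, and -2.45, -2.46 and -2.66 in the PR. The CH lay 1.65-fold above the RPE (RPE minus CH -0.72 ± 0.12 (SE), adjusted p = 0.00215), without overlap but below the fold threshold. Smad6 was 8.11-fold higher in the RPE than the PR and 13.4-fold higher in the CH.

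Smad7, which blocks TGF-beta as well as BMP receptors, followed the same order with smaller steps. Its ratios were 0.72, 0.67 and 0.30 in the CH, -0.07, 0.17 and 0.17 in the RPE, and -1.29, -1.76 and -1.33 in the PR. The CH and RPE arrays did not overlap, yet the RPE minus CH difference of -0.47 (95% interval -0.83 to -0.11) did not pass, with an adjusted p of 0.0629. Smad7 was 2.92-fold higher in the RPE than the PR (1.55) and 4.06-fold higher in the CH (2.02). With Cy5 alone these differences were 1.13 (adjusted p = 0.118) and 1.70 (adjusted p = 0.0239), and from the series table of the authors they were 1.07 (0.197) and 2.08 (0.0232), so that neither passed. The RPE call also ended with median centring (1.29) and with the scanner's log ratio (1.28).

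**Figure D3:**
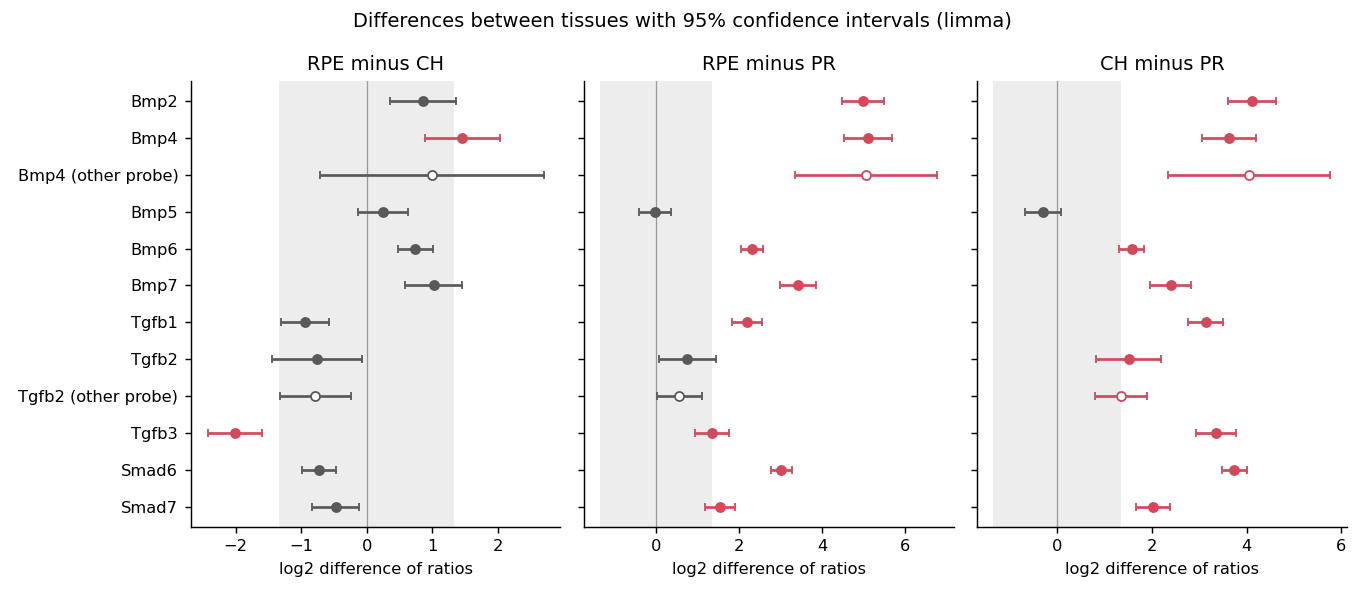
Difference of log2 ratios (x axis) with its 95% confidence interval from limma for the 12 probes of the 10 genes (y axis), for RPE minus CH, RPE minus PR and CH minus PR. Red marks passed both thresholds, open marks are the second probes of Bmp4 and Tgfb2, and the grey band spans the fold threshold of 2.5 in either direction. For RPE minus CH the BMP ligands lie right of 0 and the TGF-beta ligands and Smads left of it.

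For every member the RPE minus CH difference had the same sign within slide 2, within slide 3 and under all alternatives tried. The slides and alternatives reuse the same arrays, so this agreement is not an independent test, and Bmp5 was near background. The 4 members with all RPE arrays lower, Tgfb1, Tgfb3, Smad6 and Smad7, each had their lowest CH ratio on replicate 3, and of the 4 with all RPE arrays higher, Bmp2, Bmp4 and Bmp7 had their highest CH ratio there and Bmp6 on replicate 1. Other cell types moved with the comparison as well. All 5 fibroblast markers were called lower in the RPE, with mean ratios between 1.29 and 1.74 in the CH and between -1.29 and -0.94 in the RPE. The 5 leukocyte markers had mean ratios between -0.44 and 0.13 in the CH and between -0.87 and -0.78 in the RPE, with 1 called. All 5 had an unadjusted p below 0.05 by limma, 4 of them lower in the RPE, while Csf1r was higher there (0.53). The 6 endothelial markers, at 0.87 to 1.54 in the CH and 1.10 to 1.28 in the RPE, gave 0 calls by limma and 0 at an unadjusted p below 0.05. The 5 pericyte and smooth muscle markers (0.79 to 1.69 in the CH, 0.21 to 0.48 in the RPE) and the 4 melanocyte markers (0.59 to 1.01 and -0.24 to -0.01) each had 1 gene called lower in the RPE. At an unadjusted p below 0.05, 3 pericyte and smooth muscle markers and all 4 melanocyte markers were lower in the RPE. The 5 Müller glia markers had 1 gene called higher in the RPE, Rlbp1, which is also among the RPE markers. At an unadjusted p below 0.05 they had 2, of which 1 was lower in the RPE. The 7 rod markers had 0 calls and 3 at an unadjusted p below 0.05, all higher in the RPE. The part of these cells, and of RPE cells in the CH samples, in the differences of the members was not tested.

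Beyond the 10 genes, 96 others of the pathway were listed by role, and all 96 were on the array. In the RPE against the CH, 2 were called higher in the RPE and 7 lower, together 9, which became 4 without slide 3, 5 from the series table of the authors and 17 with median centring. In the RPE against the PR, 37 were higher and 2 lower, and in the CH against the PR, 43 were higher and 4 lower. Of all genes, 0.179% were called higher in the RPE than the CH and 1.74% lower. For RPE against PR the shares higher and lower were 10.8% and 5.23%, and for CH against PR 12.7% and 6.09%. The medians of the differences of the 96 genes were -0.19, 0.54 and 1.02 for RPE minus CH, RPE minus PR and CH minus PR. At an unadjusted p below 0.05, 16.7% of all genes were higher in the RPE than the CH and 16.8% lower. By this rule 9 of 25 other ligands were lower in the RPE and 2 higher, and the antagonists (8 lower of 12) and the genes of latency (4 lower of 7) also went both ways, while all 6 target genes that passed were lower. The 2 genes higher in the RPE than the CH were both integrin subunits that bind latent TGF-beta, Itgav (1.55, adjusted p = 0.000259) and Itgb8 (1.44, adjusted p = 0.000799). Itgb8 was well above background in Cy5 on 7 of 9 arrays, so its differences are less certain.

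Of 25 other ligands, Gdf10 (-2.23), a BMP3-like ligand, and Gdf15 (-1.35), a stress-induced cytokine, were lower in the RPE than the CH. Against the PR, 5 ligands were higher in the RPE and 2 lower, with the largest differences for Lefty2 (-2.37), a Nodal inhibitor, Gdf1 (2.22) and the activin subunit Inhbb (2.15). Bmp15, known from the ovary, is the other gene that was higher in the PR (-1.65) and was picked out after its value was seen. In the CH against the PR 6 were higher and 2 lower, led by Gdf10 (4.23), Lefty2 (-2.63) and Inhbb (2.57).

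Of 17 receptors, 0 were called between RPE and CH by limma, and 9 had an unadjusted p below 0.05, of which 8 were lower in the RPE. The type I TGF-beta receptor Tgfbr1, picked out after its value was seen, came nearest at -1.30 (adjusted p = 6.93e-05), under the fold threshold. Against the PR, 5 receptors were higher in the RPE, led by the co-receptors Tgfbr3 (5.01) and Eng (3.30) and the endothelial type I receptor Acvrl1 (2.97). In the CH 6 were higher than in the PR, led by Tgfbr3 (4.26), Tgfbr2 (3.82) and Acvrl1 (3.65), and 1 was lower, Acvr2a (-1.32), picked out after its value was seen.

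The 13 Smads and their regulators had 0 calls between RPE and CH by limma, and 8 had an unadjusted p below 0.05, all lower in the RPE. In the RPE 3 of them were higher than in the PR, the TGF-beta Smad Smad3 (2.46), the BMP Smad Smad9 (2.32) and the corepressor Tgif1 (2.08). In the CH 5 were higher than in the PR, led by Smad9 (3.49), Smad3 (2.91) and Tgif1 (2.81). Smad9 was well above background in Cy5 on 7 of 9 arrays, so its differences are less certain.

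Of 17 secreted antagonists and modulators, 3 were lower in the RPE than the CH and 0 higher. They were the BMP antagonists Nbl1 (-1.96), Sost (-1.80) and Chrdl1 (-1.58). Against the PR, 6 were higher in the RPE, led by Crim1 (4.94), a membrane protein that binds BMPs, Sostdc1 (4.46), a BMP and Wnt antagonist, and Fstl1 (2.93). In the CH 8 were higher than in the PR, led by Fstl1 (4.16), the activin-binding Fst (4.07) and Sostdc1 (3.93).

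Of the 13 genes of latency, processing and activation, 10 were higher in the RPE than the PR, led by Thbs1 (5.96), an activator of latent TGF-beta, Itgav (3.83) and Itgb8 (3.61). In the CH also 10 were higher than in the PR, led by Thbs1 (5.66), Lrrc32 (3.95), which holds latent TGF-beta at the cell surface, and Ltbp4 (3.26), while the protease gene Bmp1, not a BMP ligand and picked out after its value was seen, was lower (-1.47). Of the 11 target genes, 8 were higher in the RPE than the PR and 8 in the CH than in the PR. Id1 (4.55 for RPE minus PR and 5.26 for CH minus PR) and Id2 (4.54 and 4.65) are BMP targets, and Ctgf (3.56 and 6.15) is a TGF-beta target. Between RPE and CH, Ctgf was lower in the RPE (-2.58, adjusted p = 0.000122).

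**Figure D4:**
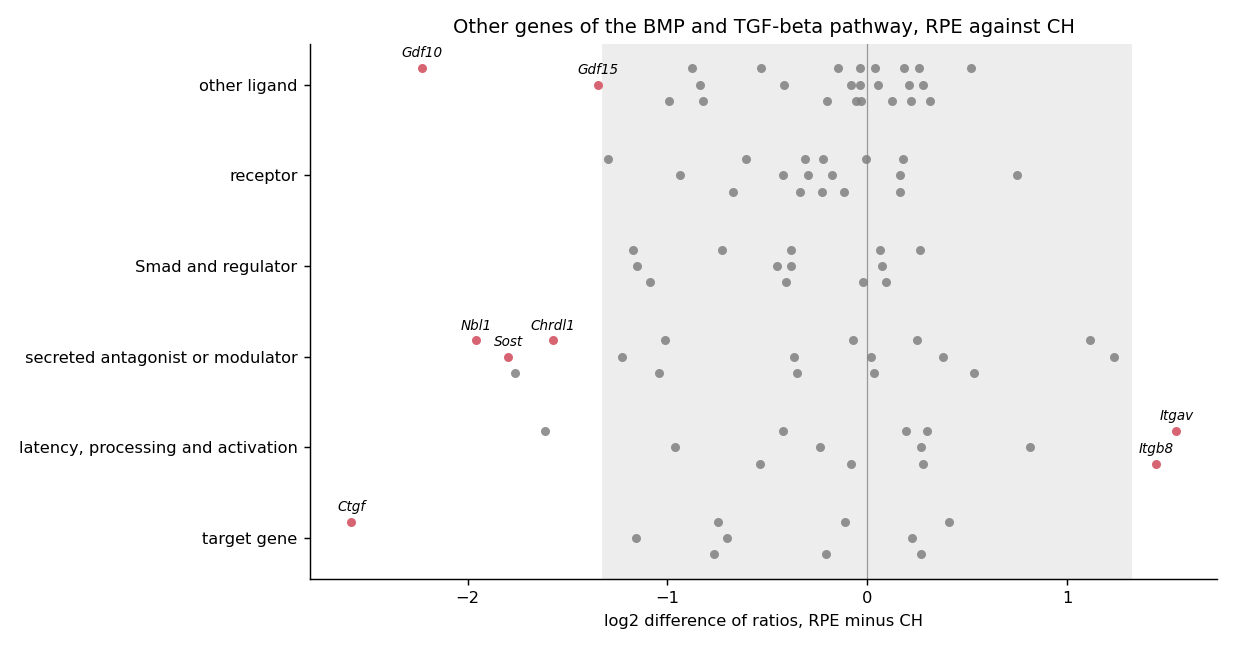
Difference of log2 ratios, RPE minus CH (x axis), of 95 of the 96 other genes of the BMP and TGF-beta pathway by role (y axis), 1 point per gene at its brightest probe, spread vertically only for reading. Red, named points passed both thresholds and the grey band spans the fold threshold of 2.5. The 2 called genes on the right are the integrin subunits Itgav and Itgb8, and 6 called genes lie on the left.

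The genes with the pattern most like each called member were ranked by the root mean square (RMS) difference of log2 ratios over the 9 arrays, each gene centred on its own mean, among 23160 genes. Nearest to Bmp4 were Car12 and Slc7a10 (both 0.17), followed by a transcript without a gene name. Nearest to Tgfb3 were Chi3l1 (0.13) and Mfap5 (0.16), again followed by an unnamed transcript. Bmp2 was nearest to Slc22a18 (0.14), Siglec5 (0.15) and Adam7 (0.15), Bmp6 to Pgm1 (0.05), Tmem175 (0.10) and Cntf (0.12), and Bmp7 to Krt23 (0.09), Wfdc2 (0.10) and Mia1 (0.13). Tgfb1 was nearest to Tlr12 (0.08), Lgals1 (0.12) and Batf (0.12), and Tgfb2 to Nr1h4 (0.19), Qpct (0.20) and Thy1 (0.20). Smad6 was nearest to Rasl12 (0.08), Capn2 (0.10) and Als2cl (0.10), and Smad7 to Klf10 (0.08), Marveld1 (0.09) and Sertad1 (0.10). Among the members themselves, the closest pairs were Bmp2 with Bmp4 (0.39), Tgfb1 with Smad6 (0.40) and Tgfb1 with Tgfb3 (0.48).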

How the data were processed

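The authors scanned 9 dual-colour Agilent arrays, processed them with Feature Extraction 9.5.3.1 and, per the labels' processing notes, used R 2.14.0 and limma. The deposited spot signals and local backgrounds are intensity values as scanned, and the deposited marks for background, saturation and outliers are a score of 0 or 1. The software's deposited log ratio is log10 of Cy5 over Cy3. A series table by the authors gives the Cy5 channel as log2 values, with centring and normalization not given in the sources used here. The last 2 served as alternatives only.

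Here, normexp (offset 50) was applied to the signals and the log2 ratios were normalized by loess per array, with control spots at weight 0 and outlier-marked spots left out (228 to 586 per array). Spots of a probe were averaged. A mean per layer was fitted to all 9 arrays with limma 3.58.1 in R 4.3.3, and p-values were adjusted over all 39429 probes (Benjamini-Hochberg). The thresholds follow the study. A gene is given at its brightest probe in Cy5, after loess and Aquantile. The fit was tested on simulated data with independent noise, no slide effect and differences larger than most RPE minus CH differences of the members. That test therefore cannot show how well such smaller differences are called. Sequences and figures were handled with Python 3.11.15, pandas 2.3.3 and matplotlib 3.10.9.

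All 10 members are named in every comparison, with at most 3 called pathway genes per role and comparison (the largest fold changes), others being marked in the text, and the 3 genes nearest in pattern to each called member. The members and gene lists were chosen with earlier results of these data known. Alternatives were other background and normalization choices, the Cy5 channel alone, the series table, blocks for slide or replicate number, fewer arrays (each left out in turn), other rules for dim spots, outlier marks and genes with several probes, another variance model and other thresholds. Probe positions are those in the deposited annotation columns (mm9), and the exon or UTR at each probe was not analysed here. The values of 1 pathway gene are not reported here, although it is in the counts.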

Additional observations from a re-analysis of the deposited data

How the results depend on the processing

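The 30 differences of the members kept their direction and their side of the thresholds in 658 of 693 values under the alternatives. In 28 values a call was lost, no call was gained, and 7 changed sign. The sign changes were all in RPE minus PR. For Tgfb2, slide as a fixed block gave -0.0876. For Bmp5, near background, the scanner's log ratio gave 0.00525 and median centring 0.0453, and leaving out 1 array gave between -0.212 and 0.0678, with a sign change without PR replicate 2, PR replicate 3, RPE replicate 1 or RPE replicate 3. Of the members called between RPE and CH (2), 1 remained with the scanner's log ratio, with median centring, with Cy5 alone, with the mean of a gene's probes, with the authors' series table and, chosen after seeing the data, without slide 3, and it was Tgfb3 in each. At an adjusted p below 0.05 with no fold threshold 7 were called. Leaving out 1 array gave 1 to 2 members for RPE against CH, 7 to 8 for RPE against PR and 8 to 9 for CH against PR.

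The pathway genes called between RPE and CH (9) were 17 with median centring, 17 at a fold above 2, 41 at an adjusted p below 0.05 with no fold threshold, 5 with the series table and 4 without slide 3. At an adjusted p below 0.05 with no fold threshold they were 69 for RPE against PR, in place of 39, and 80 for CH against PR, in place of 47. By this rule, 10.3% of all genes were higher in the RPE than the CH and 12.1% lower. The shares higher and lower were 25.1% and 25.4% for RPE against PR, and 26% and 27.7% for CH against PR.

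Samples of different layers share replicate numbers, but not every same-numbered pair deviated together (correlation -0.07 for RPE and CH replicate 1), so the numbers were not taken to pair the samples. With replicate number as a block, 2, 8 and 9 members were called for RPE against CH, RPE against PR and CH against PR, and the Bmp4 difference of 1.46 between RPE and CH had an adjusted p of 0.00491. Signal over background limits Bmp5 in every layer and Tgfb1 in the PR.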
